A study of Mus musculus with 20 samples.

Results

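The genes described here are 6 markers of the CD142+ progenitors of mouse white fat, Clec11a, Fmo2, Abcg1, Mgp, Inmt and Meox2. They were chosen by symbol, and each was found in 1 row of a table of 27179 genes (6 of 6). All 6 reached the level required for testing, a mean of 10 normalized reads over the libraries, as did 13057 genes in all. RNA-seq had been made from PDGFRb+ cells of inguinal white adipose tissue, the fat pad of the mouse groin, isolated by flow cytometry and divided by the surface peptidase DPP4 into DPP4+ and DPP4- adipose progenitor cells (APCs). All mice were male C57BL/6, with no age given, and had been kept at room temperature (22 °C) or in the cold (6 °C) for 24 h. Each of the 4 groups (DPP4+ or DPP4- cells, at 22 °C or 6 °C) held 5 libraries, 20 in all, with 8.49 to 18.8 M reads assigned to genes (1 M is 1e+06 reads). The labels do not say which libraries came from separate animals, so the p-values measure only the spread between these libraries.

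CD142 is tissue factor, the protein of the gene F3 and the cell surface receptor that starts blood clotting. In adipose tissue, CD142+ stromal cells are known as a progenitor population that was described as holding back the conversion of neighbouring progenitors into adipocytes, and they lie among the DPP4- cells rather than the DPP4+ interstitial progenitors. The genes differ in what their products do. Clec11a is a secreted lectin-like growth factor for bone-forming progenitors, and Mgp (matrix Gla protein) is a secreted inhibitor of calcification that is made active by a vitamin K dependent step and binds bone morphogenetic proteins. Fmo2 and Inmt are enzymes, a flavin monooxygenase and an indolethylamine methyltransferase. Abcg1 is a membrane transporter that moves cholesterol to lipoproteins and is a target of the liver X receptors, and Meox2 is a homeobox transcription factor of mesenchymal cells.

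The promoters of the genes that stood apart between the populations are shown for the motifs that sit close to their starts. Of the 6 genes, 4 had a window in the RefSeq table (GRCm38.p6). Each sequence is the 250 bases before the RefSeq start on the gene's own strand, cut for Inmt to the 197 bases that hold no annotated exon. For Fmo2, which has 2 windows, it is the upstream one. Capitals mark matches, on either strand, to the TATA box (TATAAA), the CCAAT box, the GC box (GGGCGG), the AP-1 site (TGACTCA) and a homeobox core (TAATTA), and no 2 of the printed matches overlap.
Clec11a, chr7:44306960-44307209, minus strand: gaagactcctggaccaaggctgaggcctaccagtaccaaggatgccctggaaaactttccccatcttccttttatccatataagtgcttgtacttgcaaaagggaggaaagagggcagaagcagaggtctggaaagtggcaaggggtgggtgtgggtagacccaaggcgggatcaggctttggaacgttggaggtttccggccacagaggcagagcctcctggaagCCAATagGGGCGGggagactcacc
Fmo2, chr1:162898759-162899008, minus strand: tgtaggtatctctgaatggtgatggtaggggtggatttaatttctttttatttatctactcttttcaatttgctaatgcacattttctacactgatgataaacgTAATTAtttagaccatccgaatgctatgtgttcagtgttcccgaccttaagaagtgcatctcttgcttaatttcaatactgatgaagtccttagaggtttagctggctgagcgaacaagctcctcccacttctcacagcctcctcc
Inmt, chr6:55175044-55175240, minus strand: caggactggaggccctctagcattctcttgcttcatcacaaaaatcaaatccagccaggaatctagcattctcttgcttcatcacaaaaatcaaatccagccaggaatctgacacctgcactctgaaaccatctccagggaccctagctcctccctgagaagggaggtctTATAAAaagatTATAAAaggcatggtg
Meox2, chr12:37108290-37108539, plus strand: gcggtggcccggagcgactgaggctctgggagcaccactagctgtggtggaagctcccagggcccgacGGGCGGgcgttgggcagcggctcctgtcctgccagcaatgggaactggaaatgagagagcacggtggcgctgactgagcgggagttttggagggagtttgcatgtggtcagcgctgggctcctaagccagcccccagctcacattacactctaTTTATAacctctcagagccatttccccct

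The 4 promoters shared no single motif. Clec11a had CCAAT 24 bases and GGGCGG 17 bases before its start, while Inmt had TATAAA at 80 and again at 69 bases before its RefSeq start. The printed Inmt sequence ends earlier, at the annotated exon, and these matches lie 27 and 16 bases before that exon. Meox2 had TATAAA on the reverse strand at 29 bases and GGGCGG at 182 bases, and Fmo2 had TAATTA at 146 bases. Among 32851 promoter windows of this length, TATAAA was held by 12.4%, CCAAT by 33.8%, GGGCGG by 32.7%, TGACTCA by 4.46% and TAATTA by 4.84%. GC content was 39.6% for Fmo2, 48.0% for Inmt, 55.6% for Clec11a and 62.0% for Meox2, against a median of 52.4%, and the Inmt window held 0 CpG sites against a median of 6.

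The labels were checked with the sort marker first. Dpp4 ranged from 7170.5 to 9994 normalized reads in DPP4+ cells at 22 °C and from 52.2 to 105 in DPP4- cells at 22 °C. At 6 °C it ranged from 7871 to 13270.1 in DPP4+ cells and from 37.8 to 137 in DPP4- cells. All 10 DPP4+ interstitial progenitor markers were higher in DPP4+ cells at both temperatures, and of 10 committed preadipocyte markers 9 were lower and 1 higher at both (limma, adjusted p under 0.05). A normalized read here is a read count divided by 1 factor per library. The authors' factors left totals of 10.2 to 12.1 M in DPP4+ libraries and 15.4 to 17.3 M in DPP4- libraries. Setting all libraries to 1 total moved the median log2 difference of all genes between the populations at 22 °C from 0.03 to 0.64, and that between temperatures in DPP4- cells from 0.00 to 0.10. Of 10 endothelial markers 9 were tested, and at 22 °C 5 were lower and 1 higher in DPP4+ cells, with none of the 10 at 0 in any group. Pecam1 stood at 23.7 in DPP4+ against 73.6 in DPP4- cells, and Tek, the gene that was higher, at 2811 against 888. At 6 °C 5 were lower and 3 higher. Of 6 Schwann cell markers 5 were tested, 4 lower and 1 higher at both temperatures. The part of such cells in the differences between the populations was not tested. Beside these lists, calls over all tested genes made up 38.7% (DPP4+ higher) and 36.2% (DPP4+ lower) at 22 °C. For 6 °C these shares were 38.5% and 35.7%.

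F3 itself, which gives the progenitors their name, did not separate the populations at 22 °C. DPP4+ cells at 22 °C had 2361, 2249, 1938, 2289 and 2029.9 normalized reads of F3, and DPP4- cells at 22 °C had 2582, 2725, 2274, 2928 and 3054. The libraries of these groups overlapped, with a ratio of means of 1.25 in favour of DPP4- cells (log2 difference -0.32, SE 0.0863; adjusted p = 0.00209, limma). With every library set to the same total the sign turned (0.30, adjusted p = 0.00301, limma), and with quantile normalization it was 0.03 (adjusted p = 0.715). The sign turned in these 2 settings only, and it stayed with each library left out (-0.38 to -0.27). The direction at 22 °C thus depended on which scaling was used.

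At 6 °C DPP4+ cells had 533, 577, 518, 511 and 518 normalized reads of F3, and DPP4- cells had 2617, 3395, 2667, 3093 and 2397. Every DPP4+ library was below every DPP4- library, 5.33-fold by the means (log2 difference -2.40, SE 0.0863; adjusted p = 2.06e-17, limma). In these bulk libraries fewer cells of a type and less RNA per cell cannot be told apart.

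**Figure D1:**
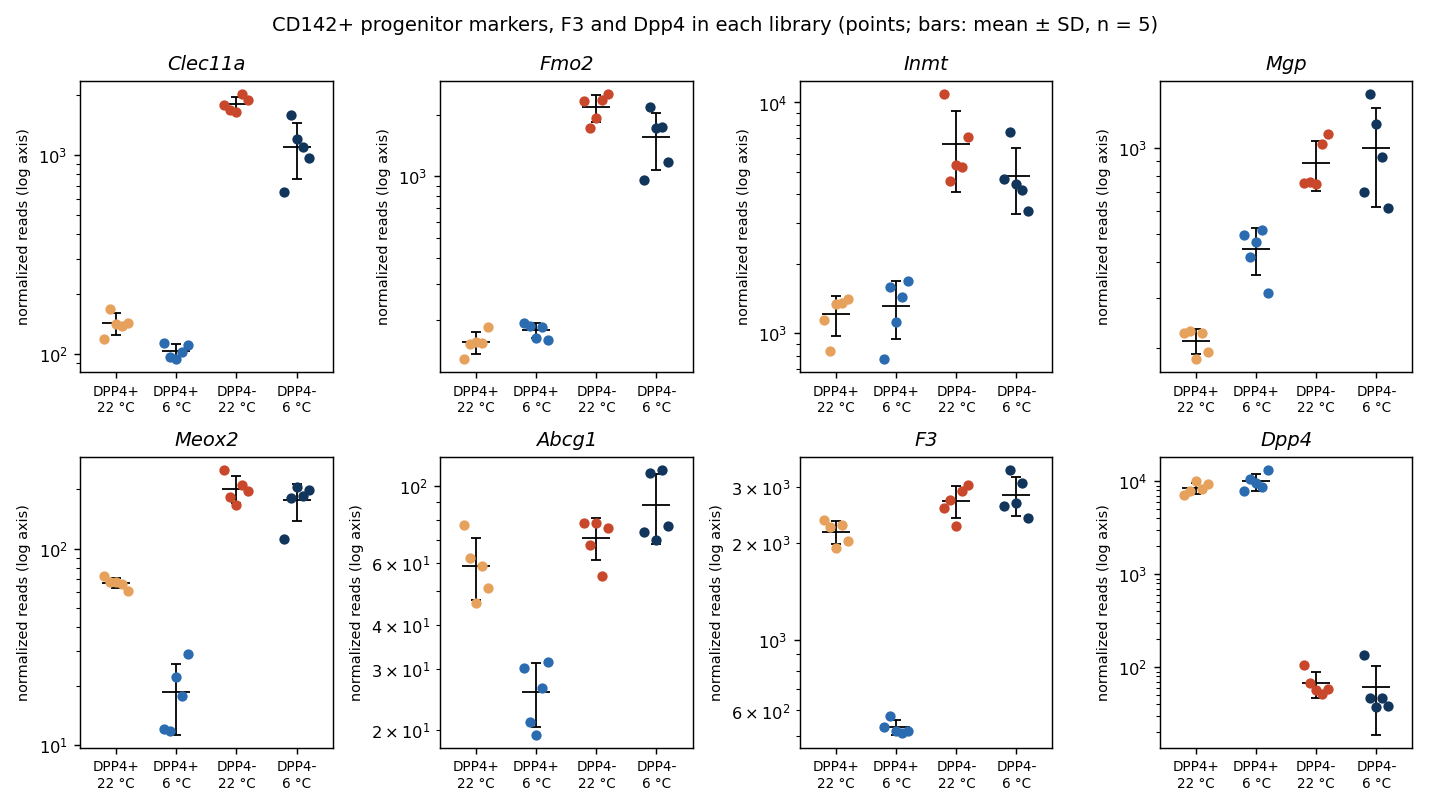
Normalized reads (log axis) of the 6 markers, of F3 and of the sort marker Dpp4 in each of the 20 libraries (points), with the mean ± SD of each group (bars, n = 5). Clec11a, Fmo2, Inmt, Mgp and Meox2 are lower in all DPP4+ libraries than in all DPP4- libraries of the same temperature, while Abcg1 and F3 overlap at 22 °C and are apart at 6 °C.

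Which of the markers differ between the populations was addressed first at 22 °C. Of the 6 genes, 5 were lower in DPP4+ cells and 0 higher, with a median log2 difference of -2.22 against 0.03 over all tested genes. Most tested genes differed between the populations at 22 °C, with 74.9% called in either direction, 38.7% higher and 36.2% lower (limma, adjusted p under 0.05). For these 5 genes the libraries of the populations were also apart, as they were, in the same direction, for 31.4% of all tested genes.

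Clec11a (GRCm38.p6 chromosome 7, 44303766 to 44306959) and Fmo2 (chromosome 1, 162874317 to 162898758) differed most. Clec11a had 119, 168, 141, 138 and 143 normalized reads in DPP4+ cells at 22 °C against 1781, 1679.9, 1645, 2013 and 1877 in DPP4- cells. The lowest DPP4- library lay far above the highest DPP4+ library, and by the means Clec11a was 12.7-fold lower in DPP4+ cells (log2 difference -3.66, SE 0.154; adjusted p = 1.39e-14, limma). Fmo2 had 129, 153, 156, 153 and 185 in DPP4+ cells against 2331, 1729, 1923, 2369 and 2517 in DPP4- cells. This was 14.0-fold lower in DPP4+ cells, again with no overlap (-3.80, SE 0.168; adjusted p = 8.78e-14, limma).

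Inmt (chromosome 6, 55170627 to 55174990) carried most reads of the 6 in every group, also per length of exon. It had 1138, 834, 1334, 1352 and 1402 normalized reads in DPP4+ cells at 22 °C against 10854, 4580.3, 5338, 5246 and 7106 in DPP4- cells, 5.47-fold lower in DPP4+ cells (-2.40, SE 0.258; adjusted p = 1.25e-07, limma). The first DPP4- library stood at 1.64 times its group mean, yet the groups did not overlap. Mgp, on the same chromosome (136872435 to 136875823), had 227, 231, 184, 227 and 194 in DPP4+ cells against 755, 761, 747, 1027 and 1117 in DPP4- cells. It was 4.15-fold lower in DPP4+ cells, with the groups apart (-2.03, SE 0.207; adjusted p = 4.24e-08, limma).

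Meox2 (chromosome 12, 37108540 to 37179534) was the least separated of the 5. It had 72.8, 67.5, 68.0, 65.8 and 61.1 normalized reads in DPP4+ cells at 22 °C against 251, 183, 168, 210.3 and 195 in DPP4- cells, 3.01-fold lower in DPP4+ cells with no overlap (-1.56, SE 0.196; adjusted p = 1.69e-07, limma). Abcg1 (chromosome 17, 31057694 to 31117984) was the exception. It had 77.1, 62.2, 46.3, 58.9 and 50.9 in DPP4+ cells against 78.3, 67.6, 78.1, 55.3 and 75.9 in DPP4- cells. These ranges overlapped and the difference did not pass the test (-0.27, SE 0.172; adjusted p = 0.157, limma). Its sign and its call also turned with the scaling, with 0.33 (adjusted p = 0.0863) at equal library totals and -0.61 (adjusted p = 0.00207) after quantile normalization.

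At 6 °C all 6 markers were lower in DPP4+ cells, with a median log2 difference of -2.47 against 0.03 over all tested genes. In this comparison 74.2% of tested genes were called in either direction, 38.5% higher and 35.7% lower (limma, adjusted p under 0.05). The libraries of the populations were apart for all 6, and in the same direction for 27.4% of tested genes. Clec11a stood at 103 ± 8.29 normalized reads in DPP4+ cells and 1097 ± 344 in DPP4- cells (SD, n = 5), a 10.6-fold difference (log2 difference -3.34, SE 0.154; adjusted p = 5.04e-14, limma). Fmo2 stood at 177 ± 15.1 against 1556 ± 485, 8.78-fold lower (-3.07, SE 0.168; adjusted p = 2.1e-12, limma).

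The transcription factor Meox2 and the sterol transporter Abcg1 had larger differences between the populations at 6 °C than at 22 °C. Meox2 had 12.1, 11.8, 22.3, 17.9 and 29.2 normalized reads in DPP4+ cells at 6 °C against 111, 181, 207, 184 and 198 in DPP4- cells, 9.44-fold lower (-3.22, SE 0.196; adjusted p = 6.31e-13, limma). Abcg1 had 30.2, 21.0, 19.4, 26.4 and 31.4 against 73.7, 109, 70.2, 111 and 76.5, 3.43-fold lower (-1.73, SE 0.172; adjusted p = 2.81e-09, limma). Neither gene's groups overlapped at 6 °C.

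For the other secreted protein and the other enzyme the differences at 6 °C were smaller than at 22 °C. Mgp had 498, 416, 471, 517 and 311 normalized reads in DPP4+ cells at 6 °C against 704, 1537, 1207, 926 and 616 in DPP4- cells. The highest DPP4+ library lay below the lowest DPP4- library, and by the means Mgp was 2.26-fold lower (-1.11, SE 0.207; adjusted p = 8.55e-05, limma). Inmt had 775, 1588, 1117, 1430 and 1682 against 4665, 7440.1, 4434, 4165 and 3399, 3.66-fold lower with no overlap (-1.87, SE 0.258; adjusted p = 3.19e-06, limma). Whether such shifts between temperatures exceeded the spread is the test of the difference of the cold effects, given further on.

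**Figure D2:**
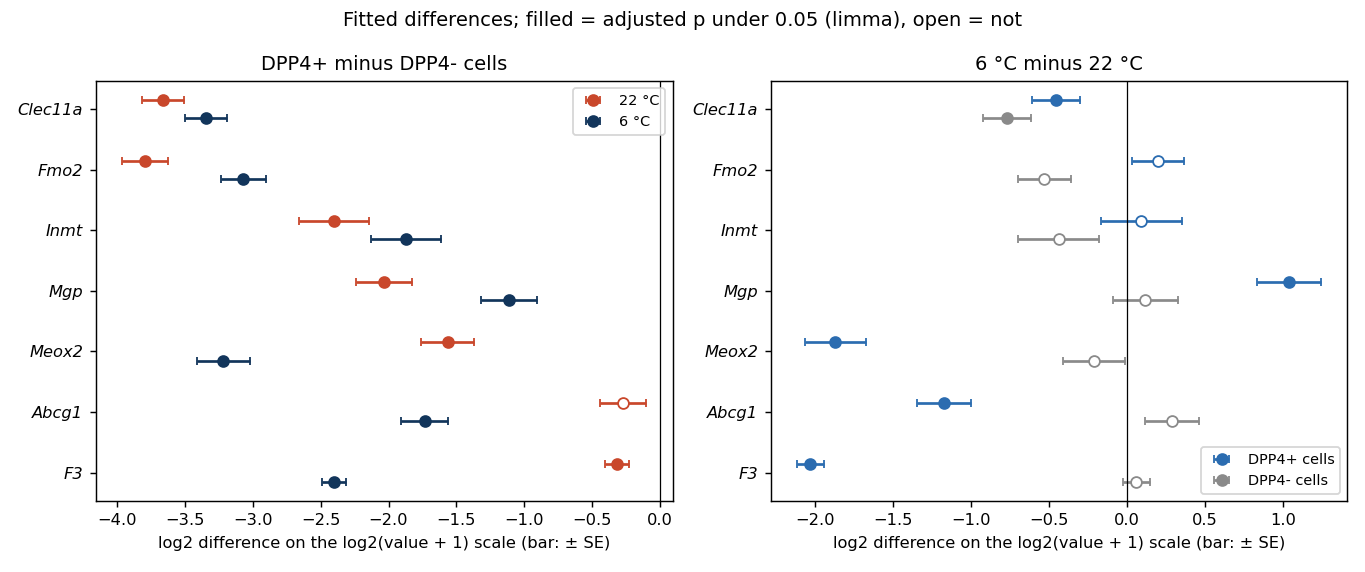
Fitted log2 differences (points) with their SE (bars) for the 6 markers and F3 between the populations at each temperature (left) and between 6 °C and 22 °C in each population (right); filled points have an adjusted p under 0.05 (limma). At 6 °C all 6 markers lie below 0, and in the cold Mgp is at 1.04 and Meox2 at -1.87 in DPP4+ cells while both stay near 0 in DPP4- cells (0.12 and -0.21).

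The effect of the cold was asked within each population. In DPP4+ cells 4 of the 6 markers changed between 22 °C and 6 °C, 3 lower and 1 higher, with a median log2 difference of -0.18 against 0.01 over all tested genes. Of all tested genes 46.1% were called in this comparison, 22.6% lower and 23.5% higher (limma, adjusted p under 0.05). The libraries of the temperatures were apart for these 4 markers, as they were for 19.0% of tested genes in the lower and 19.4% in the higher direction.

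Meox2 fell most in cold DPP4+ cells, from 67.0 ± 4.21 to 18.7 ± 7.32 normalized reads (SD, n = 5), 3.59-fold by the means (log2 difference -1.87, SE 0.196; adjusted p = 4.36e-08, limma). All 5 cold libraries, at 11.8 to 29.2, lay below all 5 libraries of 22 °C, at 61.1 to 72.8. These are low levels, and the cold libraries held 14 to 39 reads of Meox2 each. Abcg1 fell from 59.1 ± 11.9 to 25.7 ± 5.35, 2.30-fold (-1.17, SE 0.172; adjusted p = 5.57e-06, limma), with 20 to 42 reads in each cold library.

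The secreted proteins moved in opposite directions. Mgp rose from 212 ± 21.8 to 442 ± 82.7 normalized reads in cold DPP4+ cells, 2.08-fold (1.04, SE 0.207; adjusted p = 0.000431, limma). The lowest cold library, at 311, was above the highest library of 22 °C, at 231. Clec11a fell from 142 ± 17.7 to 103 ± 8.29, 1.38-fold (-0.45, SE 0.154; adjusted p = 0.0208, limma). The highest cold library of Clec11a, at 113, stood close below the lowest of 22 °C, at 119, and the call was lost without the second DPP4+ library of 22 °C (-0.39, adjusted p = 0.0604, limma) and after quantile normalization (adjusted p = 0.0522).

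The enzymes did not pass the test in DPP4+ cells. Fmo2 stood at 155 ± 19.9 at 22 °C and 177 ± 15.1 at 6 °C (0.20, SE 0.168; adjusted p = 0.355, limma), and Inmt at 1212 ± 234 and 1318 ± 372 (0.09, SE 0.258; adjusted p = 0.797, limma). F3 fell from 2173 ± 180 to 531 ± 26.9, 4.09-fold, with all libraries apart (-2.03, SE 0.0863; adjusted p = 6.57e-15, limma). Thus F3 and 3 of the 6 markers were lower in cold DPP4+ cells while Mgp was higher.

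Markers of other cell types also differed between the DPP4+ groups. The summed level of 10 mural cell markers in DPP4+ cells ranged from 9265 to 12025 normalized reads at 22 °C. At 6 °C it ranged from 4169 to 7087. Of the 10, 5 were called lower and 2 higher, against 22.6% and 23.5% of all tested genes. None of the 10 was at 0 in either group. Most of the sum came from the contractile genes Acta2 and Tagln, which stood at 45.6 and 74.9 in DPP4- cells at 22 °C. Tagln was at 3700 in DPP4+ cells at 22 °C and 2123 at 6 °C. The contractile gene Acta2 was at 6046 at 22 °C and 3083 at 6 °C (adjusted p = 0.0649, limma; 7.42e-05 to 0.0435 under the 7 alternative settings in which it passed), and the pericyte gene Rgs5 at 4.95 and 7.62. The 2 that rose were the pericyte channel genes Kcnj8, from 18.5 to 48.0 (adjusted p = 5.76e-05, limma), and Abcc9, from 222 to 342 (adjusted p = 0.00309). In DPP4- cells at 22 °C and 6 °C Abcc9 stood far higher, at 2558 and 3369, and Kcnj8 at 30.3 and 43.1. The sum of 6 mature adipocyte markers ranged from 578 to 825 at 22 °C and from 274 to 517 at 6 °C (1 of 4 tested lower). Of 9 endothelial markers tested 2 were higher and 0 lower in cold DPP4+ cells, and of 4 macrophage markers tested 1 was higher and 0 lower. Kdr of the endothelial list went from 30.3 ± 11.3 to 251 ± 47.8, and Csf1r of the macrophage list from 32.0 ± 2.93 to 88.4 ± 17.8. Other members of these lists did not move alike. Pecam1 stood at 23.7 and 23.2, Cdh5 at 20.6 and 21.7, Egfl7 at 19.9 and 34.0 and Tie1 at 11.2 and 5.40. Of the macrophage list Cd68 stood at 28.4 and 30.7 and Lyz2 at 55.5 and 34.6. The part of any of these in the changes of the 6 markers was not tested.

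In DPP4- cells 1 of the 6 markers changed with the cold, lower, with a median log2 difference of -0.32 against 0.00 over all tested genes. Here 5.22% of tested genes were called, 3.23% lower and 1.98% higher (limma, adjusted p under 0.05). That gene was Clec11a, which fell from 1799 ± 150 to 1097 ± 344 normalized reads (SD, n = 5), 1.64-fold (-0.77, SE 0.154; adjusted p = 0.00599, limma). The cold DPP4- libraries had 649, 1589.7, 1194, 1094 and 959 normalized reads, all below the lowest library of 22 °C, at 1645. Libraries were apart in this way, lower in the cold, for 3.22% of tested genes. With the 2 DPP4- groups fitted alone the call was lost (adjusted p = 0.0908, limma). The sum of 6 mature adipocyte markers ranged from 79.7 to 249.2 normalized reads at 22 °C and from 260.1 to 491 at 6 °C in these cells (1 of 4 tested higher), and that of 6 mesothelial markers from 20.3 to 46.1 and from 52.3 to 76.4 (1 of 2 tested higher). Both sums were higher in all cold libraries, and their part in the fall of Clec11a was not tested.

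The other 5 markers did not pass the test in DPP4- cells, and their cold libraries overlapped those of 22 °C. Fmo2 stood at 2174 ± 332 at 22 °C and at 961, 2176, 1715, 1749 and 1180.2 normalized reads in the cold (-0.53, SE 0.168; adjusted p = 0.0723, limma). It passed with DESeq2 (adjusted p = 0.046) and without the second cold library (-0.66, adjusted p = 0.014, limma). Inmt stood at 6625 ± 2542 and 4821 ± 1540 (-0.44; adjusted p = 0.356), and Mgp at 881 ± 177 and 998 ± 378 (0.12; adjusted p = 0.79, limma). Meox2 stood at 202 ± 31.9 and 176 ± 37.7 (-0.21; adjusted p = 0.582), and Abcg1 at 71.0 ± 9.84 and 88.1 ± 20.2 (0.29; adjusted p = 0.351, limma). F3 stood at 2712 ± 305 and 2834 ± 402 (0.06; adjusted p = 0.742, limma).

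For Clec11a, Fmo2 and Mgp the cold DPP4- libraries spread more widely around their mean than those of the other groups. The second stood above its group mean for all 6 markers, at a median of 1.42 times the mean, and was the highest of the 5 for Clec11a, Fmo2, Mgp and Inmt. It also had the highest sum of 10 macrophage markers, 522 normalized reads against 87.2 to 210 in the other 4 libraries, and the part of this in its marker levels was not tested. The first was the lowest for Clec11a, Fmo2 and Meox2, at a median of 0.668 times the mean. It had the highest Dpp4 of the 5, 137 normalized reads against 37.8 to 47.1 in the others. Its sum of 10 DPP4+ interstitial progenitor markers was the highest of the group, and its sum of 10 committed preadipocyte markers the lowest. The part of these in its marker levels was not tested. The first and second libraries had about the same number of reads, 11.6 and 11.9 M.

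**Figure D3:**
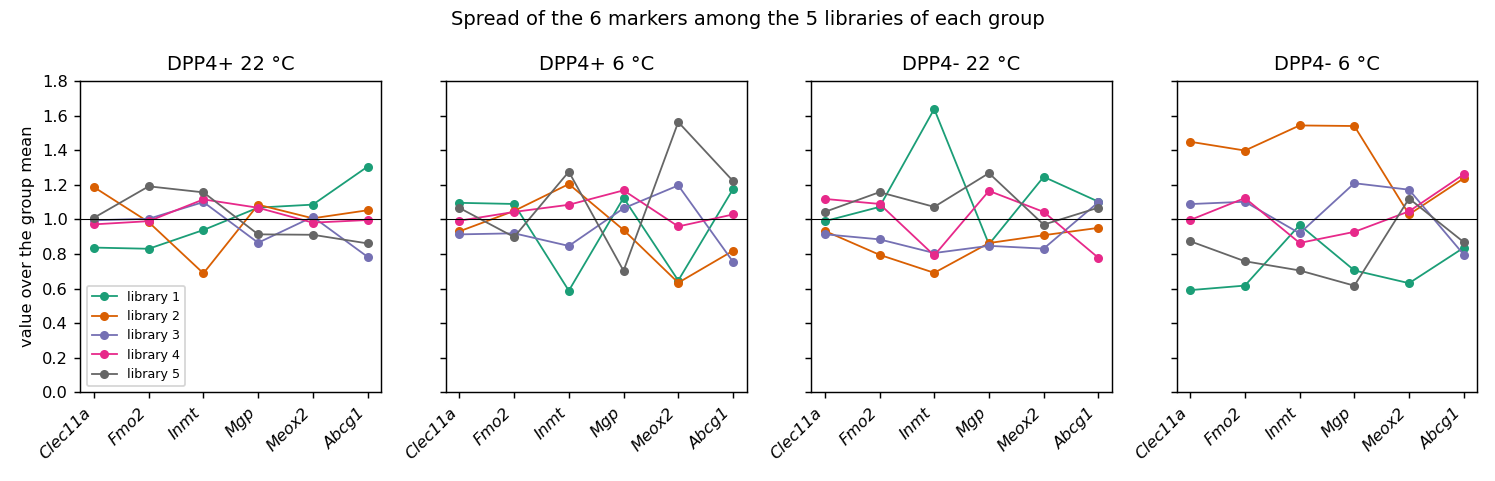
Value of each marker in each library over its group mean (lines join the 6 markers of 1 library; a value of 1 is the group mean). In cold DPP4- cells (right) the second library lies highest for Clec11a, Fmo2, Inmt and Mgp and the first lies lowest for Clec11a, Fmo2 and Meox2, while in DPP4- cells at 22 °C the first library reaches 1.64 for Inmt.

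Whether the effect of the cold differed between the 2 populations was tested as the difference of the cold effects, DPP4+ minus DPP4-. Of the 6 markers 4 differed, 2 with a higher and 2 with a lower value in DPP4+ cells, where 33.2% of tested genes were called, 16.8% higher and 16.4% lower (limma, adjusted p under 0.05). The median of the 6 was 0.42 against 0.01 over all tested genes. Meox2 (-1.66, SE 0.278; adjusted p = 6.86e-05, limma) and Abcg1 (-1.46, SE 0.244; adjusted p = 5.78e-05) fell in cold DPP4+ cells relative to DPP4- cells, as did F3 (-2.09, SE 0.122; adjusted p = 6.16e-12). Mgp (0.92, SE 0.293; adjusted p = 0.0215, limma) and Fmo2 (0.73, SE 0.238; adjusted p = 0.0243) were higher in that comparison.

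For Fmo2 the difference combined a value of 0.20 in DPP4+ cells and of -0.53 in DPP4- cells, neither of which passed on its own. For Mgp it came with a rise in DPP4+ cells and 0.12 in DPP4- cells. Both calls were lost when every library was set to the same total (Fmo2 0.58, adjusted p = 0.0544; Mgp 0.78, adjusted p = 0.0607, limma). The difference did not pass for Inmt (0.53, SE 0.365; adjusted p = 0.289, limma) or for Clec11a (0.32, SE 0.217; adjusted p = 0.282), which was lower in the cold in both populations. That of Clec11a passed without the second cold DPP4- library (0.47, adjusted p = 0.0484, limma).

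**Figure D4:**
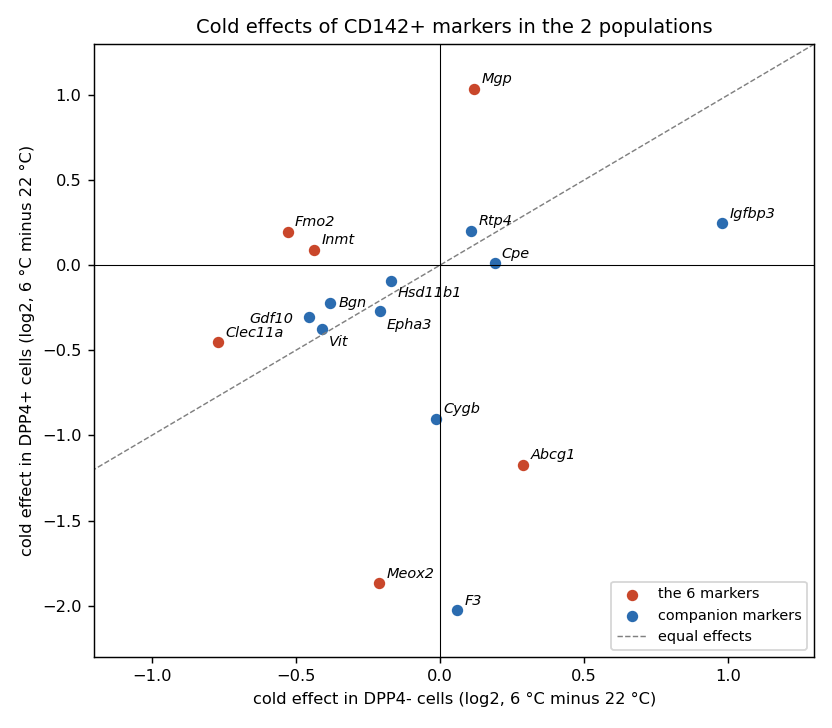
Cold effect (log2, 6 °C minus 22 °C) in DPP4+ cells against that in DPP4- cells for the 6 markers (red) and the 10 companion markers tested (blue), with the line of equal effects. Of the genes whose difference of cold effects was called, Meox2, Abcg1, F3 and Cygb lie below the line and Mgp and Fmo2 above it. Clec11a lies below 0 on both axes.

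Companion genes of the CD142+ signature were read from a separate list of 12, of which 10 were tested. Spink2 and Fgf12, whose highest group means were 4.01 and 10.98 normalized reads, fell below the level required. At 22 °C 9 of the 10 were lower in DPP4+ cells and 0 higher (median -1.50), against 36.2% of all tested genes called lower. At 6 °C 8 were lower (median -2.36), against 35.7%, with F3 among them each time. The gene not called at 22 °C, Igfbp3, stood at 3443 ± 700 normalized reads in DPP4+ and 2483 ± 728 in DPP4- cells (0.51; adjusted p = 0.059, limma). It passed as higher in DPP4+ cells under 4 alternative settings (0.51 to 1.12) and with any of 3 libraries left out. The directions of F3 and of the proteoglycan Bgn at 22 °C turned with the scaling (Bgn -0.38, and 0.23 at equal library totals). Gdf10, a secreted protein related to bone morphogenetic proteins, stood at 1576 ± 243 in DPP4+ and 12833 ± 616 in DPP4- cells at 22 °C, 8.14-fold lower (-3.04; adjusted p = 1.01e-15, limma). The matrix protein Vit was 9.54-fold lower, at 172 ± 15.8 against 1642 ± 206, and Rtp4, a chaperone of receptor trafficking, was 8.64-fold lower, at 176 ± 26.9 against 1520 ± 229. Hsd11b1, which makes active glucocorticoid, stood at 381 ± 76.3 against 2006 ± 471, 5.26-fold lower. The receptor kinase Epha3 (322 ± 61.8 against 713 ± 89.4) and the carboxypeptidase Cpe (839 ± 65.2 against 1448 ± 121) were lower by less, and the call of Cpe was lost at equal library totals (-0.17, adjusted p = 0.247, limma).

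In cold DPP4+ cells 3 of the 10 companions were called, F3, Cygb and Gdf10, all lower, where 46.1% of all tested genes were called and 22.6% lower. A count of this size is near the share over all genes. Cygb, a globin of stromal cells, fell from 1767 ± 70.0 to 962 ± 222 normalized reads (-0.90; adjusted p = 2.94e-08, limma), and its cold effect was lower in DPP4+ than in DPP4- cells (-0.89; adjusted p = 1.42e-05). Gdf10 went from 1576 ± 243 to 1279 ± 241 (-0.31; adjusted p = 0.0406, limma), a call lost with any of 7 libraries left out, DPP4+ libraries 2, 3 and 5 of 22 °C and 1, 2, 3 and 4 of 6 °C (adjusted p = 0.0553 to 0.132). In DPP4- cells, where 5.22% of all tested genes were called, 3 of the 10 companions were. Igfbp3, a binding protein of insulin-like growth factors, was higher in the cold, and Gdf10 and Bgn were lower. Igfbp3 went from 2483 ± 728 to 4880.3 ± 1364 (0.98; adjusted p = 0.0205, limma), a call lost without the third cold library (adjusted p = 0.0522) and with the DPP4- groups fitted alone (adjusted p = 0.135). Gdf10 went from 12833 ± 616 to 9437 ± 1389 (-0.46; adjusted p = 0.0289), lost with any of 4 libraries left out, DPP4- libraries 1 and 5 of 22 °C and 1 and 3 of 6 °C (adjusted p = 0.0618 to 0.0743). Bgn (-0.38; adjusted p = 0.0448) was lost with any of 14 of the 20 libraries left out (adjusted p = 0.0505 to 0.114).

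The genes that work with each marker were read from short lists. For Abcg1, 11 genes of sterol efflux and the liver X receptors were tested, of which DPP4+ cells had 4 higher and 5 lower at 22 °C, and 5 higher and 6 lower at 6 °C. Called shares over all tested genes were 74.9% and 74.2%, so the list's share of calls was near or above these with no common direction. The close relative Abcg4 stood at 20.8 ± 3.05 normalized reads in DPP4+ and 99.4 ± 24.9 in DPP4- cells at 22 °C, and at 10.9 ± 2.90 and 92.4 ± 15.96 at 6 °C. Like Abcg1, it fell in cold DPP4+ cells (-0.90; adjusted p = 0.000464, limma). The receptor Nr1h3 was lower in DPP4+ cells at 22 °C (107 ± 15.5 against 396 ± 53.7) and 6 °C (84.0 ± 10.2 against 432 ± 27.6), as was the lipoprotein component Apoe (1792 ± 135 against 12259 ± 3543 at 22 °C). In cold DPP4+ cells 2 of the 11 rose and 3 fell, about the share called over all tested genes (46.1%). The transporter Abca1, which loads cholesterol onto apolipoproteins, rose from 3977 ± 175 to 5044 ± 532 (0.34; adjusted p = 0.00335, limma), while the lipoprotein receptor Scarb1 fell from 273 ± 26.8 to 127 ± 19.7 (-1.11; adjusted p = 4.9e-07). Abca1 and Abcg1, both known targets of the liver X receptors, thus changed in opposite directions.

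Of the other flavin monooxygenases 2 of 4 were tested, Fmo1 and Fmo5. In DPP4+ against DPP4- cells 1 was lower at 22 °C and 2 at 6 °C, where 36.2% and 35.7% of all tested genes were lower. Fmo5 did not pass at 22 °C (-0.15; adjusted p = 0.353, limma). Fmo1 stood at 349 ± 36.0 in DPP4+ and 1397 ± 98.4 in DPP4- cells at 22 °C and at 238 ± 33.2 and 1033 ± 122 at 6 °C. Fmo1 fell with the cold in DPP4+ (-0.56; adjusted p = 3.91e-05, limma) and in DPP4- cells (-0.44; adjusted p = 0.00807), whereas Fmo2 passed in neither. Fmo5 fell in cold DPP4+ cells from 133 ± 6.50 to 97.1 ± 15.2 (-0.46; adjusted p = 0.00933, limma) and did not pass in DPP4- cells. Inmt was read beside a list of small-molecule methyltransferases and methyl donor genes. Of its 7 tested genes 6 were lower and 1, the donor gene Mat2a, higher in cold DPP4+ cells, where 22.6% of all tested genes were lower and 23.5% higher. Nnmt, which methylates nicotinamide, fell from 486 ± 57.0 to 339 ± 42.7 (-0.52; adjusted p = 0.00156, limma), and Hnmt, which methylates histamine, fell from 40.5 ± 7.36 to 17.3 ± 7.43 (-1.27; adjusted p = 0.000477). Inmt itself did not pass there.

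For Mgp the list held the vitamin K cycle, another Gla protein and BMP ligands, 6 genes in all. In DPP4+ against DPP4- cells 4 of these were lower at 22 °C and 3 at 6 °C, where 36.2% and 35.7% of all tested genes were lower. With the cold 2 were lower and 0 higher in DPP4+ cells (22.6% of all tested genes lower), and 3 were lower and 0 higher in DPP4- cells (3.23%). Gas6, a Gla protein that binds TAM receptors, declined in the cold DPP4+ population, opposite to Mgp. Its mean there was 9647 ± 833 normalized reads at 22 °C but 4072 ± 405 in the cold (-1.25; adjusted p = 4.72e-10, limma). Itga11, the integrin chain through which Clec11a acts on bone progenitors, was higher in DPP4+ cells, at 2694 ± 161 against 1236 ± 70.3 at 22 °C (1.12) and 2369 ± 487 against 1257 ± 279 at 6 °C (0.92), so the ligand and this receptor chain were each higher in a different population. Meox1, the relative of Meox2, stood at 2.52 ± 1.61 in DPP4+ and 89.3 ± 12.7 in DPP4- cells at 22 °C (-4.79; adjusted p = 2.79e-13, limma). Cdkn1a, a cell cycle inhibitor that Meox2 is known to induce, was lower in DPP4+ cells at 22 °C (2227 ± 114 against 4507 ± 551) and fell in cold DPP4- cells to 3488 ± 440 (-0.37; adjusted p = 0.0118, limma). Cdkn2a, another cell cycle inhibitor of the list, went the other way between the populations and was higher in DPP4+ cells, at 26.4 ± 4.11 against 1.95 ± 0.818 at 22 °C (3.24; adjusted p = 5.94e-09, limma) and 15.5 ± 6.35 against 1.08 ± 0.712 at 6 °C (2.98; adjusted p = 2.55e-08).

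Levels were compared between genes per kilobase of exon (GENCODE vM21). Inmt was the highest and Abcg1 the lowest of the 6 in every group on this scale. In DPP4- cells at 22 °C Inmt had 4141 ± 1589 normalized reads per kb, followed by Mgp at 743 ± 149, Clec11a at 604 ± 50.4, Fmo2 at 388 ± 59.1, Meox2 at 85.4 ± 13.5 and Abcg1 at 9.73 ± 1.35. In DPP4+ cells at 6 °C Inmt had 824 ± 232 and Mgp 373 ± 69.7, ahead of Clec11a at 34.6 ± 2.79, Fmo2 at 31.6 ± 2.70, Meox2 at 7.91 ± 3.10 and Abcg1 at 3.52 ± 0.733. Clec11a and Fmo2 thus stood within 2 times of each other in both groups, and Mgp was second in each. No exon of the 6 genes shared bases with an exon of another annotated gene.

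The order of the 4 groups was not the same for all genes. DPP4- cells at 22 °C were highest for Clec11a, Fmo2, Inmt and Meox2, and DPP4- cells at 6 °C were highest for Mgp, Abcg1 and F3. Except for Clec11a, the 2 DPP4- groups overlapped. DPP4+ cells at 6 °C were lowest for Clec11a, Abcg1, Meox2 and F3 and apart from DPP4+ cells at 22 °C, whereas for Mgp DPP4+ cells at 22 °C were lowest and apart. For Fmo2 and Inmt the 2 DPP4+ groups overlapped.

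The genes most like each marker were taken as those with the highest Pearson r of log2(value + 1) over the 20 libraries among 10170 genes with a mean of at least 50. Because the libraries fall into 2 populations, r mostly reflects the group means and is a description. Clec11a was most like Bace2 (r = 0.993), Gdf10 (0.992) and Serpina3m (0.991), and Fmo2 most like Ermp1 (0.991), Ubash3b (0.990) and Tspan11 (0.989). Inmt was most like Ccl7 (0.981), Atp6ap2 (0.980) and Csrnp1 (0.979), and Mgp most like H13 (0.973), Sec23b (0.968) and Slc31a1 (0.961). Meox2 was most like Smarca1 (0.980), whose means were 126 and 32.9 in DPP4+ cells at 22 °C and 6 °C and 313 and 272 in DPP4- cells, followed by Isoc1 (0.978) and Pkig (0.977). Abcg1 was most like Runx1t1 (r = 0.942) and Ctnnbip1 (0.931), and Runx1t1 likewise was low in cold DPP4+ cells, at 98.1 against 212 to 292 in the other groups.

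Within groups the markers varied together only in part. After the group means were removed, the 15 pairs of markers had r from -0.0161 to 0.841 over the 20 libraries, with a median of 0.195 and 3 pairs above 0.5. The highest was Clec11a with Fmo2 (Pearson r = 0.841, Spearman rho = 0.713), and without the 2 libraries farthest from the median it was 0.609. These values describe shared deviations of the same libraries, which also share depth and scaling.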

How the data were processed

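RNA-seq of 20 libraries was used, 5 in each of 4 groups taken from the labels. The deposited signal is normalized read counts per gene, made by the authors by dividing the counts of each library by 1 factor. The submitters' processing notes name DESeq2 1.6.3, featureCounts 1.4.6, HISAT2 2.0.1 and Trim Galore 0.4.1 and the builds GRCm38 and mm10, with no role or order. The annotation and the use of strand are not given in the sources used here. In every library 100% of values were whole multiples of 1 step (tolerance 0.1 read), which gave back the whole reads, and genes without a symbol took at most 0.0824% of them.

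The main test was limma 3.58.1 in R 4.3.3, run on log2(value + 1) of the genes whose mean reached 10 normalized reads, with 4 group means, a variance trend, robust estimation and 16 residual degrees of freedom. P-values are two-sided and adjusted by Benjamini-Hochberg over all 13057 genes within each of 5 contrasts, with a threshold of 0.05. Log2 differences are fitted values, which understate the change of low genes, and ratios are ratios of group means. The whole reads were also tested with edgeR 4.0.16 (quasi-likelihood) and DESeq2 1.42.0 as alternatives, beside other scalings, filters, pseudocounts and variance models and the leaving out of each library. Named genes are the 6 markers, F3, Dpp4, members of the lists with a role described, and the 3 genes most like each marker. A gene that falls under this rule is not reported here. The markers and lists were chosen with earlier results of these data known. Sequences and coordinates are from RefSeq tables on GRCm38.p6.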

Additional observations from a re-analysis of the deposited data

Results flagged for a closer look

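Among 28 checks of the lowest and highest library of a group, over the 6 markers and F3, 1 library lay far from the others. It was the first DPP4- library at 6 °C, with 111.3 normalized reads of Meox2 against 181 to 207 in the other 4. Chance gives about 1 in 20. That library also had the highest Dpp4 of its group, 137 normalized reads, and the part of this in its Meox2 level was not tested. The effect of the cold differed between DPP4+ and DPP4- cells, by the test of the difference itself (limma), for Fmo2 (0.73), Abcg1 (-1.46), Mgp (0.92), Meox2 (-1.66) and F3 (-2.09, all as log2 differences, DPP4+ minus DPP4-).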

How the results depend on the processing

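Over 14 alternatives, 395 of 402 results for single markers kept their direction and their side of the threshold, as did 594 of 600 with each of the 20 libraries left out in turn. The number of markers called for the cold effect in DPP4- cells, 1 in the report, was 2 with DESeq2, 0 with only the groups of the contrast and 1 to 2 with each library left out. The number called for the difference of the cold effects, 4 in the report, was 2 at equal library totals and 4 to 5 with each library left out. With left-out libraries the counts ranged from 5 to 5 between the populations at 22 °C, from 6 to 6 at 6 °C and from 3 to 4 for the cold effect in DPP4+ cells. The direction turned at 22 °C for Abcg1 at equal library totals (0.33), for F3 at equal library totals (0.30) and with quantile normalization (0.035), and for Bgn under the same settings (0.23 and 0.39). Cold effects near 0 that did not pass also turned when 1 library was left out. They were those of Inmt in DPP4+ cells (-0.036 to 0.27), Mgp in DPP4- cells (-0.057 to 0.27) and F3 in DPP4- cells (-0.0086 to 0.12). The cause was not tested.

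Equal library totals moved the median of all genes between the populations from 0.03 to 0.64 at 22 °C and from 0.03 to 0.50 at 6 °C, and that of the difference from 0.01 to -0.13. Calls over all genes then went from 5052 higher and 4730 lower to 9107 and 2039 at 22 °C, from 5031 and 4662 to 8240 and 2461 at 6 °C, from 259 and 422 to 915 and 227 for the cold in DPP4- cells, and from 2192 and 2137 to 1128 and 3060 for the difference. Over all genes the cold effect in DPP4- cells had 681 calls, 392 with only the groups of the contrast, 434 with array weights and 1142 at equal library totals.

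The labels do not say that the replicate numbers pair the libraries. The deviations of the 10 same-numbered pairs of DPP4+ and DPP4- libraries correlated at 0.0166 to 0.156, with 4 above 0.1, and those of the 40 other pairs at -0.156 to 0.0508. Of the 10 DPP4+ libraries 6, and of the 10 DPP4- libraries 7, correlated best with their own number, a hint of pairing from the data and not the design. With the number as a replicate block over all libraries the counts of markers called stayed at 5, 6, 4, 1 and 4 in the order of the report. A block within each temperature gives no cold effect, so the cold effects within a population were not checked under that pairing. Low counts limit Meox2 and Abcg1 in cold DPP4+ cells.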
